A study of Mus musculus with 6 samples.

Results

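The chromatin around 10 genes of the ETS family of transcription factors was described in Beko cells, a mouse T-cell progenitor line. The study's methods call them leukaemia pre-T cells, and its results describe their Notch signalling as constitutively active. The 10 genes were Ets1, Ets2, Fli1, Erg, Elf1, Elf4, Gabpa, Etv6, Elk3 and Spib, listed by name as ETS factors of lymphoid cells. The list was chosen with earlier results of these data known. Around each gene the window was its body, from the first to the last annotated base, and 50 kb to either side (mouse genome build mm9, GENCODE vM1 annotation). These windows, with the interval between Ets1 and Fli1 on chromosome 9, held 69 of the 32527 peaks of open chromatin in the series. Open chromatin was mapped by ATAC-Seq, in which a transposase inserts sequencing adaptors into DNA that is not wrapped in nucleosomes. Notch receptors signal by a fragment that the protease γ-secretase cuts free, and an inhibitor of this protease (GSI) was the treatment. There were 3 libraries from cells given the GSI DAPT for 24 h and 3 from cells given the solvent DMSO. All libraries came from the same cell line, and nothing in the labels tells whether they were separate cultures. The labels give DAPT at 10 mg/ml, while the study's methods give the same figure in μg/ml. The authors merged the libraries of both treatments into 1 list of peak positions with no height and no value per library, so the effect of GSI could not be compared here and no value below has a replicate error. A peak in this list is a stretch called open in at least 3 of the 6 libraries, outside blacklisted regions, and where no peak is listed weaker signal was not measured.

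ETS factors share a DNA-binding domain that recognises the bases GGAA, with a preference for the bases around them that differs between members. Several of them, among them Ets1, Fli1 and Elf1, are known to act in blood stem cells and lymphocytes, often beside RUNX factors on composite sites. Ets1 and Fli1 are neighbours that point away from each other, as are Ets2 and Erg, and these gene pairs are regarded as copies of 1 ancestral pair. Gabpa binds as part of a complex with a second subunit, Etv6 is a repressor, Elk3 belongs to the branch that works with serum response factor, and Spib is the closest relative of PU.1.

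The cell type of the label was checked by open starts of marker genes. The start was open, with a peak no more than 1 kb away, for 11 of 15 genes listed as markers of T-cell progenitors, among them Cd3e, Lck, Bcl11b, Tcf7 and Gata3, although not for Il2ra, Ptcra, Cd3d and Cd7. The same held for 1 of 8 B-cell genes (Vpreb1), for 0 of 7 myeloid genes, for 3 of 5 erythroid genes (Klf1, Epor and Gata1) and for 1 of 4 endothelial genes (Pecam1). By the same rule 47.0% of all coding genes had an open start. The marker sets are small, and their differences from this share were not tested.

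The sequence just before the start of a gene is shown first for Ets1, Ets2, Erg and Spib, because these starts differed in whether a peak covered them. Each is 150 bases read 5′ to 3′ on the strand of the gene, ends at the base before the start and holds no annotated exon. Capitals mark CCGGAA (the ETS site with CC before the core), AGGAAG (the purine-rich ETS site), TGTGGT (RUNX), CAGCTG (E-box) and TGGGAA (RBPJ, the DNA-binding protein of the Notch pathway), on either strand.
Ets1, start in a peak, chr9:32503477-32503626, plus strand: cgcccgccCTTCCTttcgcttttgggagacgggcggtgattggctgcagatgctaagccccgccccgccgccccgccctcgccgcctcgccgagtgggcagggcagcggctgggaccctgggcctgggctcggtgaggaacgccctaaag
Ets1, start without a peak, chr9:32443656-32443805, plus strand: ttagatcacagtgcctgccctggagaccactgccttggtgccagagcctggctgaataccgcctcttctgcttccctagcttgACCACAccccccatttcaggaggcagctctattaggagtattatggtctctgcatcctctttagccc
Ets2, start in a peak, chr16:95923532-95923681, plus strand: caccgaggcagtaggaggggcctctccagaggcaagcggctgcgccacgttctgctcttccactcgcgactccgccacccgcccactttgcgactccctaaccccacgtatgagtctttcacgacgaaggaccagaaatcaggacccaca
Erg, start without a peak, chr16:95808201-95808350, minus strand: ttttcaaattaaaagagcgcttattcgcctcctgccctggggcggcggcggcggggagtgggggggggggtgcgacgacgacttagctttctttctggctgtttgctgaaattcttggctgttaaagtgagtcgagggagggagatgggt
Spib, peak begins downstream, chr7:51787442-51787591, minus strand: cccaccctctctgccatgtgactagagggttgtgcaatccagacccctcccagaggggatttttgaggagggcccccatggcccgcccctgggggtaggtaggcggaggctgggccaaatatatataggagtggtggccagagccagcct

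None of these 5 stretches held CCGGAA, which occurred in 10.9% of the 150-base stretches before the outermost start of each of 22367 coding genes. Unlike the 5 shown, the stretches of all coding genes could hold exons. The Ets1 start in a peak is also not the outermost start of Ets1. AGGAAG occurred once, before the Ets1 start in a peak, against 19.3% of coding genes. GGGCGG, the site of SP factors, occurred 5 times before the Ets1 start in a peak and once each before Ets2, Erg and Spib, against 35.5% of coding genes. TGTGGT stood once before the Ets1 start without a peak and nowhere else in the 5.

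CCGGAA itself occurred 7 times in the peaks at starts of the 10 genes and 6 times in their peaks away from starts. Each site is shown as 26 bases read in the direction of CCGGAA (capitals), with 10 bases to either side.
Gabpa, chr16:84835095-84835120, minus strand, untranslated exon of Atp5j: ggagccagggCCGGAAgtagaacggt
Gabpa, chr16:84835267-84835292, minus strand, exon of Atp5j: gctgagggacCCGGAAgcacttaccc
Gabpa, chr16:84835768-84835793, minus strand, untranslated exons of Atp5j and Gabpa: ctcaccagctCCGGAAttcgtcccgt
Gabpa, chr16:84835832-84835857, minus strand, untranslated exon of Atp5j: gggacaagccCCGGAAccaggccgcc
Elf1, chr14:79881239-79881264, minus strand, untranslated exon of Elf1: ccgtgcgctcCCGGAAcgggcggctg
Etv6, chr6:133985339-133985364, plus strand, before the start: cgcgtccttcCCGGAAagccccttcc
Fli1, chr9:32348691-32348716, minus strand, intron of Fli1: cgccggggtcCCGGAAgacgtggccg
Ets1, distal, chr9:32555392-32555417, minus strand, intron of Ets1: acactggagtCCGGAAgtgacccgtc
Fli1, distal, chr9:32314050-32314075, minus strand, intron of Fli1: ttaactgagaCCGGAAaagagctttt
Elf1, distal, chr14:79929972-79929997, minus strand, intron of Elf1: tgaaatgtctCCGGAAgctattttat
Elf4, distal, chrX:45783021-45783046, plus strand, intron of Elf4: aaaaagaggcCCGGAAgagaaaacag
Erg, distal, chr16:95563346-95563371, minus strand, intergenic: actatgcctgCCGGAAaccagctttc
Erg, distal, chr16:95563861-95563886, plus strand, intergenic: ggtgctggccCCGGAActgagaactc

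Of the 13 sites, 2 were followed by GT, 1 in the Gabpa start peak and 1 in the last intronic peak of Ets1. CCGGAAGT thus occurred in 1 of 12 peaks at starts (8.33%), against 10.8% of all peaks at starts. Away from starts it occurred in 1 of 52 peaks (1.92%), against 1.51% of all such peaks. The start peak of Gabpa alone held 4 of the 13. CCGGAA occurred in 4 of the 12 peaks at starts of the 10 genes (33.3%, 95% Wilson interval 13.8 to 60.9) and in 46.1% of all 11522 peaks within 1 kb of an annotated start. Here and below, such intervals cover counting error only. A match to these letters is a description of the sequence and was not tested for binding.

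Of the 10 genes, 9 had a peak within 1 kb of 1 of their own annotated starts, against 47.0% of all coding genes, and Erg had none. A start lay inside a peak in 8 genes, and at Spib the nearest peak edge was 520 bp from the start. Ets1, Elf4 and Elk3 had 2 such peaks each, against 5.74% of coding genes with at least 2. At Ets1 and Elk3 the 2 peaks were only 152 and 172 bp apart. With peaks within 1 kb joined, the 10 genes had 10 such peaks in place of 12, and only Elf4 kept 2. The share of coding genes was not counted with joined peaks. Of the 35 annotated starts of the 10 genes, 19 lay within 1 kb of a peak, and all starts did so in 4 genes, Fli1, Elf4, Elk3 and Spib. For starts inside a peak and for counts of single starts, the share over all coding genes is not given here. The 12 peaks at own starts had a median width of 902.5 bp (range 326 to 1524), beside 855 bp for all peaks at starts. CpG-rich sequence (GC from 50% upwards and CpG at 0.6 or more of the expected number) was found in 9 of the 12 (75%), beside 68.3% of all peaks at starts. The remaining peaks of the windows were 5 at starts of other genes and 52 distal peaks, over 1 kb from every annotated start.

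**Figure D1:**
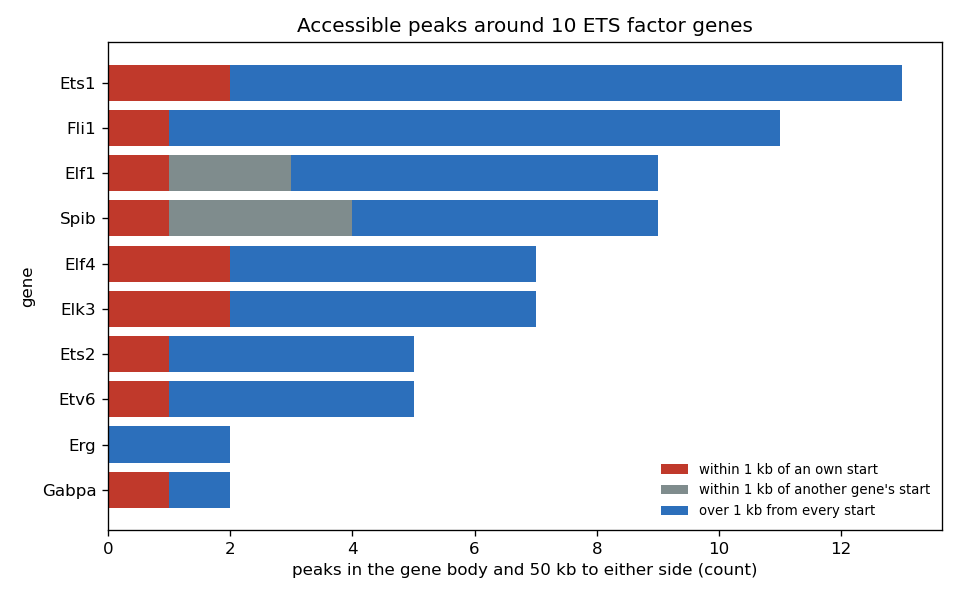
Number of peaks (horizontal axis, count) in the window of each gene (vertical axis), divided into peaks within 1 kb of an own start, peaks within 1 kb of another gene's start and distal peaks. Ets1 has 13 peaks and Fli1 11, Erg and Gabpa have 2 each, and Erg is the gene without a peak at an own start.

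Peak numbers ranged from 2 for Erg and Gabpa to 13 for Ets1, with a median of 7, beside a median of 3 over all coding genes measured with the same flanks. Since the windows differ in length, peaks were also counted per 100 kb. The 10 genes had a median of 4.37 peaks per 100 kb, beside 2.38 (median) for all coding genes, and 7 of the 10 lay above the median gene. The order was Spib (8.48), Ets1 (5.87), Fli1 (5.02), Elf4 (4.60), Elf1 (4.47), Elk3 (4.28), Ets2 (4.20), Gabpa (1.55), Etv6 (1.50) and Erg (0.611), all in peaks per 100 kb. From Elf4 to Ets2 these densities were close together, and with 1 merged list their order has no replicate check. The median percentile of the 10 genes among coding genes was 72.0 (SD over genes 22.7, n = 10). Counting distal peaks only, the median percentile was 85.1, and 8 of the 10 genes were above the median coding gene. The distal density of Ets1, at 4.96 peaks per 100 kb, stood at percentile 95.8, and that of Fli1, at 4.56, stood at 93.9.

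**Figure D2:**
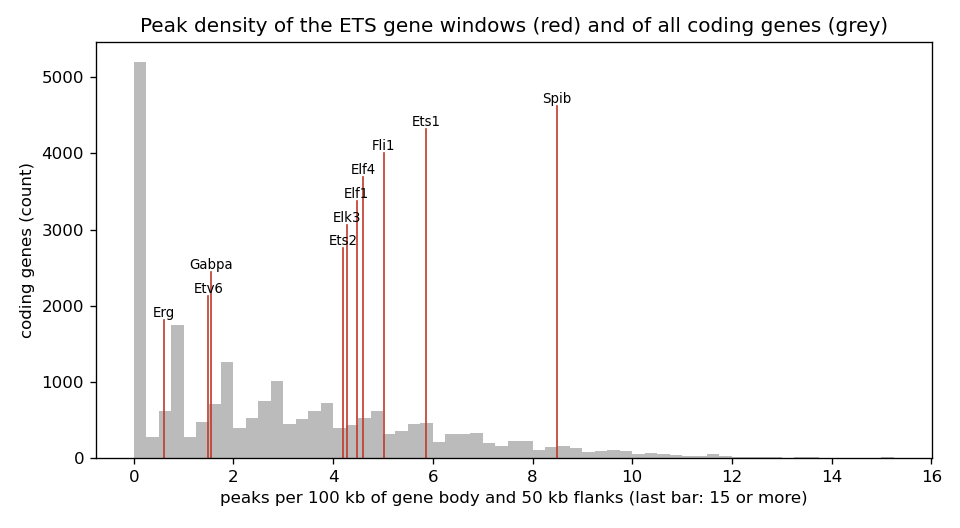
Histogram of peaks per 100 kb of window (horizontal axis) over 22367 coding genes (vertical axis, count of genes), with a red line at the value of each ETS gene. The heights of the red lines only separate the names. Spib, Ets1 and Fli1 are farthest to the right, and Erg, Etv6 and Gabpa lie below the coding-gene median of 2.38.

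At Ets1, a regulator of T, B and NK cell development, the annotation gives 2 starts. The start at position 32503627 of chromosome 9, which 3 transcripts use, lay inside a peak of 858 bp (32503213 to 32504070). A further peak of 362 bp (32504223 to 32504584) followed 152 bp downstream in the intron, at lower GC (49.2% against 65.2%), and held TGGGAA 3 times. The upstream start at 32443806, used by 1 transcript, had no peak, and the nearest was 19803 bp away. It lay within the longest stretch of the window without a peak, 55.7 kb. The window held 11 distal peaks, 4 upstream of the gene body, 6 in introns and 1 downstream. The last 2 intronic peaks, both 658 bp wide, were 925 bp apart.

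Fli1, which acts in megakaryocytes, stem cells and lymphoid precursors, has 1 annotated start, at 32348974 on chromosome 9. It lay inside the widest of the 12 start peaks, 1524 bp (32347614 to 32349137), at percentile 95.5 by width among all peaks at starts. This peak reached 163 bp upstream of the start and 1360 bp downstream into the gene, and a distal peak of 591 bp began 225 bp beyond it. In the gene body, 5 further intronic peaks lay 25.4 to 53.8 kb from the start. The widest distal peak of the window was among them, 1007 bp at 32317217 to 32318223. No peak was listed in the last 65.1 kb of the gene body, and the next lay in the downstream flank.

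The interval between the upstream start of Ets1 and the start of Fli1 was 94.8 kb long (chr9:32348975-32443805). The Ets1 start in a peak lies outside it, farther into the gene. The interval touched 7 peaks, 1 of them the Fli1 start peak and 6 distal, and counted by peak centre it held 6. Measured from the Fli1 start, the centres of the distal peaks lay at 23.3, 40.6, 48.7, 50.8, 67.7 and 74.8 kb. In the same order their widths were 621, 601, 302, 1103, 738 and 504 bp. The last of them was 20.1 kb from the upstream Ets1 start, and the longest stretch without a peak in the interval was 22.8 kb. The peak of 302 bp was the 1 peak that belonged to the windows of both genes. The interval had 7.38 peaks per 100 kb and stood at percentile 95.6 of 1477 intervals of at least 50 kb between coding genes that point away from each other, whose median was 0.982.

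At the other pair, the interval between Erg and Ets2 was 115.5 kb long (chr16:95808201-95923681) and touched 5 peaks, the Ets2 start peak and 4 distal ones. Counted by peak centre, this interval held 4. It had 4.33 peaks per 100 kb, at percentile 84.3 of the same intervals, and a longest stretch without a peak of 42.6 kb. From the first Ets2 start the distal peaks lay 43.1, 54.0, 62.1 and 96.5 kb upstream, with widths of 469, 663, 364 and 362 bp, and 2 of them were outside both gene windows. With both gene bodies included, the Ets1 and Fli1 span of 335.6 kb held 21 peaks (6.26 per 100 kb) and the Erg and Ets2 span of 361.9 kb held 5 (1.38 per 100 kb). The bodies of Erg and Ets2 added no distal peak to those between them, whereas the Ets1 and Fli1 bodies held 6 distal peaks each.

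**Figure D3:**
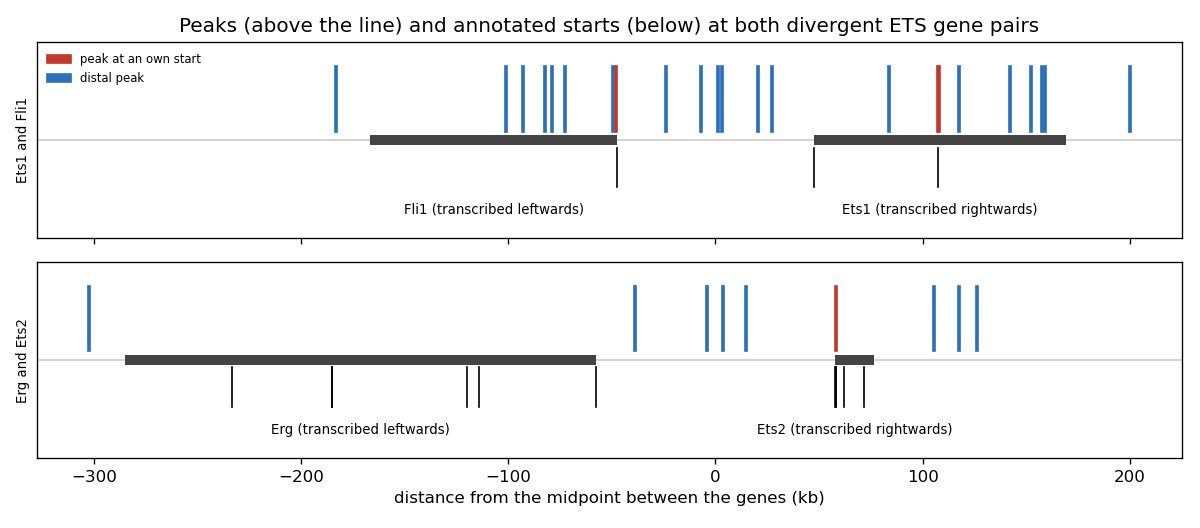
Gene bodies (dark bars), annotated starts (black ticks below) and peaks (coloured ticks above) of Ets1 and Fli1 (upper panel) and of Erg and Ets2 (lower panel), against distance from the midpoint between each pair in kb. Counted by peak centre, the upper pair has 6 peaks between the genes and the lower pair 4. The whole span of the upper pair held 21 peaks, and the Erg body held none.

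Ets2, a widely expressed target of the Ras and MAP kinase pathway, has 5 annotated starts. The first 3 lay in a CpG-rich peak of 1187 bp (95923419 to 95924605 of chromosome 16), and the others were 3341 and 12856 bp from it. Its body of 18977 bp held no distal peak. Downstream, at 34.2 kb from the nearest own start, was the widest distal peak of all 10 windows, 1387 bp (95970928 to 95972314). It held the purine-rich ETS word, the RUNX word and the GATA word 2 times each. CTTTGA (TCF and LEF) and CCACNAGG (CTCF) also occurred 2 times each and the E-box word once, and wide peaks hold more words.

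Erg, a factor of blood stem cells and endothelium, was the member with the lowest density and no peak in its body of 227.4 kb. All of its 6 start positions lay without a peak, the nearest at 18767 bp. A body without a peak was found for 39.2% of the 954 coding genes of at least 200 kb. Its window held 2 distal peaks, 1 of 362 bp upstream and 1 of 936 bp (95563000 to 95563935) in the downstream flank, 69.2 kb from the nearest own start. The downstream peak was the 1 distal peak with 2 CCGGAA sites, both shown above.

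**Figure D4:**
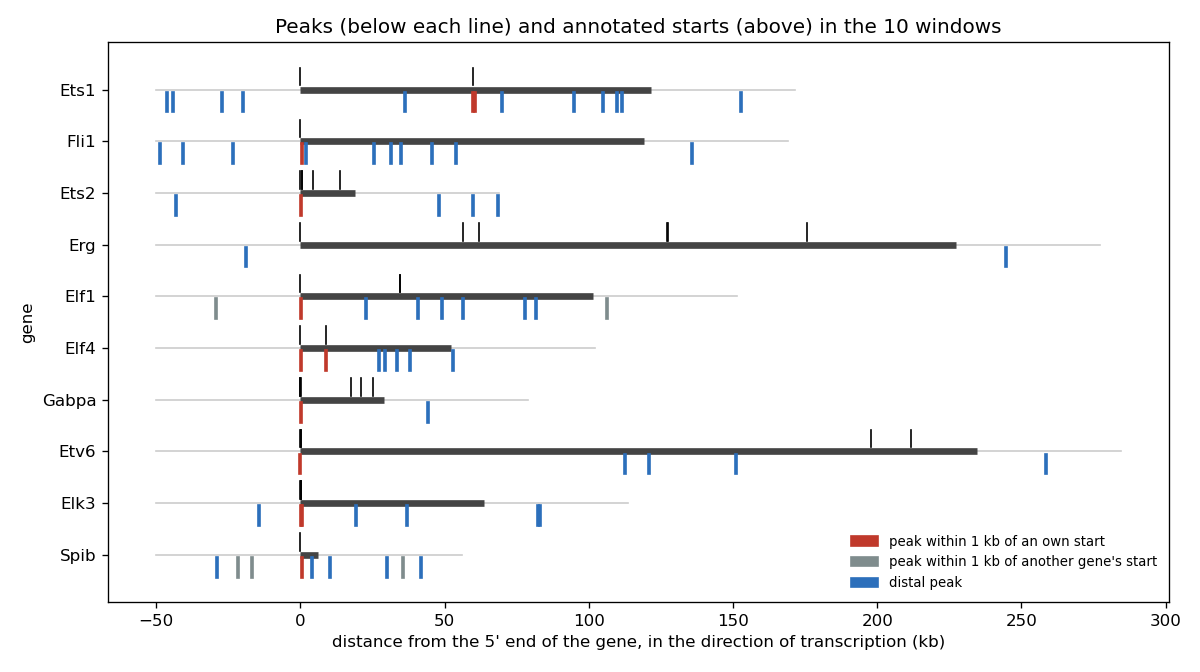
Windows of the 10 genes aligned on the 5′ end (0 kb), in the direction of transcription (horizontal axis, kb), with gene bodies as dark bars, annotated starts as black ticks above and peaks as coloured ticks below. Erg shows no peak over its whole body, Etv6 none for 111.6 kb after its start, and the Ets1 peaks at an own start lie well inside the annotated gene.

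Elf1, which regulates genes of T cells and blood vessels, had a start peak of 1418 bp (79880524 to 79881941 of chromosome 14), with the highest GC of the start peaks (72.4%) and GGGCGG 14 times. The starts of its other 3 transcripts, farther into the gene, lay 5838 and 5850 bp from the nearest peak. That peak was the widest distal peak of the window, 1123 bp (79921331 to 79922453). All 6 distal peaks of the window lay in Elf1 introns, and the 2 peaks at other starts belonged to Gm5465 and Sugt1.

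Elf4, linked to the quiescence of CD8 T cells and to NK cells, has 2 annotated starts on the X chromosome, and each lay in a peak of its own. The first, at 45816309, lay in a peak of 692 bp (45815770 to 45816461) that was not CpG-rich. The second, at 45807346, lay in a CpG-rich peak of 947 bp (45807062 to 45808008). Farther in, 4 intronic peaks lay between 18.4 and 29.1 kb from the nearest own start. The widest, 1197 bp (45777617 to 45778813), held AGGAAG 5 times, CAGCTG and TGGGAA 2 times each and TGTGGT once. Against the 932 coding genes of the X chromosome, whose median was 0.462 peaks per 100 kb, the Elf4 window (4.60) stood at percentile 94.0, and at 98.4 for distal peaks alone. Over all coding genes its percentile was 74.0.

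Gabpa encodes the DNA-binding subunit of GABP, which acts at the promoters of many widely expressed genes. Its start peak of 1344 bp (84834766 to 84836109 of chromosome 16) covered 3 of its 6 annotated starts and also the start of Atp5j, a subunit of the mitochondrial ATP synthase transcribed the other way. The list does not tell which of the genes the peak serves. The window held 1 other peak, 393 bp in the downstream flank (84879372 to 84879764), and the distal density stood at percentile 42.8.

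Etv6, a repressor needed by blood stem cells and frequently rearranged in leukaemia, had a start peak of 1453 bp (133984805 to 133986257 of chromosome 6) over 3 of its 5 annotated starts. It held AGGAAG 5 times and CCGGAA once. The next 111.6 kb of the gene had no peak, the longest such stretch in a member body after that of Erg. Its 3 intronic peaks and 1 downstream peak lay beyond it, the widest of 731 bp at 134136246 to 134136976, and its starts at 134183618 and 134197583 were 46642 and 46264 bp from a peak.

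Elk3, a partner of serum response factor, had all 4 start positions inside a peak of 607 bp (92773541 to 92774147 of chromosome 10), and a peak of 368 bp (92773001 to 92773368) lay 172 bp farther into the gene. Both were CpG-rich, and only the former held AGGAAG (3 times) and GGGCGG (4 times). The widest of its 5 distal peaks was 973 bp, in an Elk3 intron (92736437 to 92737409).

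Spib, known from B cells and plasmacytoid dendritic cells, had the highest density of peaks, but in a window of 106077 bp crowded with other genes, where 3 of 9 peaks lay at starts of other genes (2310044H10Rik, Pold1 and Nr1h2). The peak counted at its own start was the narrowest of the 12, 326 bp (51786596 to 51786921 of chromosome 7), in an intron, without CpG-rich sequence and with CAGCTG 2 times and TGTGGT once. The start itself, at 51787441, was not in a peak. The widest distal peak of the window, 824 bp (51745303 to 51746126), lay in an untranslated exon of 2310044H10Rik, 1262 bp from a start of that gene.

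For the rest of the family, 16 other ETS genes were counted in the same way, with Spi1, the gene of PU.1, found as Sfpi1 in the annotation. A peak within 1 kb of an own start was present for 9 of the 16 (Elf2, Elf3, Elk1, Elk4, Erf, Etv3, Etv4, Etv5 and Spi1), against 47.0% of all coding genes. The 16 genes had a median of 3 peaks per window and 2.73 per 100 kb, beside 7 and 4.37 for the 10 genes above. Those 10 were listed as factors of lymphoid cells with earlier results known, and the difference was not tested. Ehf, Etv1 and Fev had no peak in the window at all. The densest was Erf, a repressor, with 12 peaks (11.1 per 100 kb), of which 6 lay at starts of other genes, and Etv3 stood at percentile 96.4 for distal peaks. Spi1 had 7 peaks (5.25 per 100 kb), the nearest 415 bp from a start.

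Of the 52 distal peaks, 27 were centred in an intron of the gene itself, 19 were intergenic, 3 lay in introns of other genes and 3 in exons. By position, 28 were inside a member body, 10 upstream and 14 downstream. Their median width was 514.5 bp, beside 465 bp for all 21005 distal peaks, and 5 were wider than 1 kb (9.62%, against 5.03%). A neighbouring peak within 5 kb was present for 34.6% of them, against 29.0% of all distal peaks. The median GC was 49.6%, beside 50.1%.

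Short words known as sites of 9 kinds of factor were counted in the distal peaks on both strands, and the share over all distal peaks was weighted to the same widths, because wide peaks hold more words. CCGGAA occurred in 5 of 52 peaks (9.62%, 95% Wilson interval 4.18 to 20.6), against 11.2% of all distal peaks at these widths. Such intervals treat the 52 peaks as independent. Many of them come from 1 locus, since the Ets1 window held 11 and the Fli1 window 10, with 1 peak in both. The base before GGAA differs between both ETS words and the RBPJ word, so no site was counted under more than 1 of them. AGGAAG occurred in 67.3% (53.8 to 78.5), against 66.2%. TGTGGT occurred in 59.6% (46.1 to 71.8), against 48.1%, although the number of TGTGGT sites per kb was nearly equal (1.26 and 1.24). TGGGAA occurred in 48.1% (35.1 to 61.3), against 42.6%, and CAGCTG in 38.5% (26.5 to 52.0), against 47.0%. For each of the 9 words counted over whole peaks, the share of all distal peaks at these widths lay inside the interval of the members. Without weighting by width, the share for TGTGGT over all distal peaks was 45.5%, just below the interval of the members, and those of the other 8 words lay inside theirs. In the central 200 bp of the peaks, CAGCTG occurred in 13.5% (6.68 to 25.3), against 25.7% of all distal peaks, and AGATAA, the GATA word, in 15.4% (8.01 to 27.5), against 8.94%, and these shares were not tested. An ETS word of either kind together with TGTGGT was found in 22 of 52 peaks (42.3%, 29.9 to 55.8), against 31.0% of all distal peaks without weighting by width. In the central 200 bp it was 13.5% against 10.4%.

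**Figure D5:**
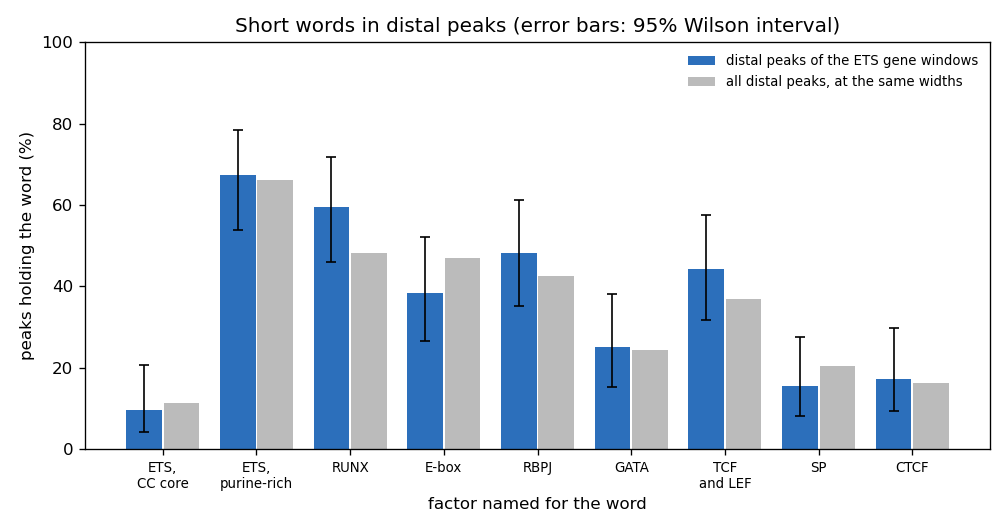
Share of distal peaks (vertical axis, %) that hold each of 9 short words, named by factor (horizontal axis), for the 52 distal peaks of the ETS gene windows (blue, with 95% Wilson intervals) and for all distal peaks at the same widths (grey). Every grey bar ends inside the interval of its blue neighbour.

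The distal peaks with most words for ETS with CC, RUNX, E-box and RBPJ were 4, with 5 words each, 3 of them at Ets1 and 1 at Elf4. The 4 peaks were 801 to 1197 bp wide, beside a median of 514.5 bp for the 52, and wide peaks hold more words. The share of all distal peaks with as many words is not given here. For 3 of the 4 peaks 300 bases are shown, on the plus strand, with capitals as for the starts. Each was placed where most of the 5 words in capitals fell, so the purine-rich ETS word counted for its place although not for the choice of the peak, and none of the 3 holds CCGGAA. In the fourth, the peak of 1103 bp between Ets1 and Fli1 (32399231 to 32400333), the words were spread out.
Ets1, intron, chr9:32479901-32480200: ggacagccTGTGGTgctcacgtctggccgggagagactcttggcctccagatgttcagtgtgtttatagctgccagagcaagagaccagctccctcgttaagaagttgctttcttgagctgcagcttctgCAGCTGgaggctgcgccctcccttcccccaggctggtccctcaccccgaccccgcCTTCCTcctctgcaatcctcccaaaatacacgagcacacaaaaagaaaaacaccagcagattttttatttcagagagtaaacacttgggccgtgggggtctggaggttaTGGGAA
Ets1, intron, chr9:32513390-32513689: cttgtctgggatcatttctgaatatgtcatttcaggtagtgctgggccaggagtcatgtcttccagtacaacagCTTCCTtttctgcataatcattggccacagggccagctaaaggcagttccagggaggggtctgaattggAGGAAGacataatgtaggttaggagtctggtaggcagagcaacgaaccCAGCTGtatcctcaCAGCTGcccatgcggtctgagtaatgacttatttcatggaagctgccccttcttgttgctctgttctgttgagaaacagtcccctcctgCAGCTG
Elf4, intron, chrX:45777753-45778052: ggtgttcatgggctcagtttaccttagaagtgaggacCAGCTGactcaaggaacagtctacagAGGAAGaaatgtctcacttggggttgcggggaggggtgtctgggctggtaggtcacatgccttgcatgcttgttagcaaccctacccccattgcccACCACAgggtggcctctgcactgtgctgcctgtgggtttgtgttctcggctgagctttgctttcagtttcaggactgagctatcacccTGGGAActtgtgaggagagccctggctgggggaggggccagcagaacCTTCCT

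The first stretch, from the peak at 32479704 to 32480521 in the stretch of the gene between both Ets1 starts, held the purine-rich ETS, RUNX, E-box and RBPJ words once each. The second, from the peak at 32513367 to 32514167, held the E-box word 3 times and the purine-rich ETS word 2 times. The Elf4 stretch held the purine-rich ETS word 2 times and the 3 other words once each. As a measure of how common single words are, the central 300 bases of all distal peaks held AGGAAG in 48.2%, TGTGGT in 33.0%, CAGCTG in 32.7% and TGGGAA in 24.7%.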

How the data were processed

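Open chromatin of Beko cells was measured by ATAC-Seq (a commercial kit) in 3 DMSO and 3 GSI libraries, grouped by their labels. Per the study's methods and the submitters' processing notes, the authors aligned reads to mm9 with HISAT2 (version 2.2.1), removed duplicates with Picard, called peaks per library with MACS2 and kept peaks found in 3 of the 6 libraries, without blacklisted regions. The deposited list holds chromosome, start and end, and a score column that is 0 for every peak, so neither depth per library nor a treatment contrast could be used and no test was run. The 10 members and all lists were chosen with earlier results of these data known.

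Peaks were joined to gene bodies with 50 kb flanks and to transcript starts of GENCODE vM1 with Python 3.11.15 and numpy 2.4.6, and plotted with matplotlib 3.10.9. Sequences were read from the mm9 genome. A percentile is the share of the compared set with a lower value, with ties counted at 0.5. The set was the 22367 coding genes, compared by density, except where the text names another set or measure. The scripts were tested on simulated peaks and planted words. Named were all members, every peak at an own start, the peaks between both divergent pairs, the widest distal peak of each window and the distal peaks with most words. Stretches shown were placed before starts, around CCGGAA and where words were densest, in place of the peak centres first planned. Reads from repeated sequence and the lack of an input control can affect which stretches were called. The stretch before 1 start is not reported here.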

Additional observations from a re-analysis of the deposited data

How the results depend on the processing

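No paired analysis was possible because replicates are merged into 1 peak list, and for the same reason none could be left out. With peaks of at least 500 bp only, the windows held 42 peaks in place of 69 and the Erg and Ets2 interval 2 in place of 5. The share of distal peaks with an ETS word was 1.92% for CCGGAAGT and 67.3% for AGGAAG in place of 9.62% for CCGGAA, since these are other words. Over all distal peaks, CCGGAAGT was found in 1.51%. CCGGAA in the central 200 bp alone was found in 3 of 52 peaks (5.77%) in place of 5. Under the other alternatives for the flank, the distance to a start, joined peaks and transcripts, peak and gene counts stayed within 1.5 times the values above, and percentiles and widths moved by less than the SD over members. Counting distal peaks alone raised the median percentile from 72.0 to 85.1, and the number of genes with a peak at an own start was 8 or 9 throughout. The number of reads behind a peak is unknown, so weak open chromatin below the calling threshold was not measured.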
